A study of Mus musculus with 66 samples.

Results

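The 5 dopamine receptor genes of the mouse, Drd1, Drd2, Drd3, Drd4 and Drd5, were followed in the nucleus accumbens (NAcc), the ventral part of the striatum, over one day after saline or cocaine in mice with and without D2 receptors in one class of striatal neuron. They were taken by their symbols from the expression table, which lists 24138 genes, and each symbol matched a single row. All 66 distinct libraries were used. Dopamine receptors are G protein-coupled receptors of a D1-like class, encoded by Drd1 and Drd5, which raises cAMP through stimulatory G proteins, and of a D2-like class, encoded by Drd2, Drd3 and Drd4, which lowers cAMP through inhibitory G proteins. In the striatum the spiny projection neurons of the direct pathway carry D1 receptors and those of the indirect pathway carry D2 receptors, while D2 receptors are also found on cholinergic interneurons and, as autoreceptors, on the terminals of dopamine neurons. Cocaine blocks the dopamine transporter, so that dopamine released in the NAcc reaches these receptors for longer.

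The mice were labelled C57BL/6, a C57BL/6J background by the study's methods, were males of 3 to 5 months and had 2 genotypes. In iMSN-D2RKO mice, which lack D2R in medium spiny neurons of the indirect pathway (iMSNs), both D2R alleles are floxed (D2R flox/flox) and Cre is made under the promoter of the D1R gene (D1R-CRE+/-). The controls were labelled wild type (WT), and whether they carried floxed alleles is not given in the sources used here. Saline or 20 mg/kg cocaine was injected intraperitoneally at ZT3, where ZT is the zeitgeber time in hours after lights on in a cycle with 12 h of light, and ventral striatum was punched out at ZT3, ZT7, ZT11, ZT15, ZT19 and ZT23. Each of the 22 groups held 3 libraries, which the labels give as separate samples without saying more of their origin, so that errors measure the spread between these samples. The 3 ZT3 libraries of a genotype belong to the saline and the cocaine series alike. Values are FPKM, fragments scaled to the length of the transcript and to the mapped fragments of the library, which the authors computed per gene, so that levels can be compared between genes. A difference between groups is given in log2(FPKM + 1), which understates differences of genes of low FPKM.

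Total FPKM per library ran from 364078 to 690048. The highest total belonged to iMSN-D2RKO ZT7 saline replicate 1, and the next was 465297. Read numbers are not known, and a relative depth estimated from 1439 rarely detected genes ran from 0.378 to 1.73. On the first principal axis of each library's deviation from its group mean, computed from 9582 genes without the receptors and holding 43.6% of that variance, 13 libraries stood apart with scores of 44.2 and more against at most 15.1 in the other 53. These set-apart libraries were 6 of 33 WT and 7 of 33 iMSN-D2RKO libraries, all but 1 of them taken at ZT15, ZT19 or ZT23.

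The results turn on Drd1, Drd2 and Drd3, and the start regions of these genes are printed to show their GC content and motifs. Each runs from 250 bases before to 50 bases after a transcript start of RefSeq (GRCm38.p6), 5′ to 3′ on the gene's strand, and capitals mark the GC box GGGCGG or its complement CCGCCC. Drd1 is on the minus strand at chr13:54051183-54055705, Drd2 on the plus strand at chr9:49340627-49408177 and Drd3 on the plus strand at chr16:43754026-43822932 (GRCm38). The windows are chr13:54055609-54055908 for Drd1, chr9:49340153-49340452 for Drd2 and chr16:43761971-43762270 for Drd3, the last of which lies inside the interval annotated for the gene.
Drd1: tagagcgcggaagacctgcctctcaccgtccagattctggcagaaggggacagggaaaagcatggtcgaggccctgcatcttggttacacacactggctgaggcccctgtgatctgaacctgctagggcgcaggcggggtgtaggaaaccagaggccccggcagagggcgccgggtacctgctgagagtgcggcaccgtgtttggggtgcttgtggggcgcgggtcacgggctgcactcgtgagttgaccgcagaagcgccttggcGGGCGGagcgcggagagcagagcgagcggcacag
Drd2: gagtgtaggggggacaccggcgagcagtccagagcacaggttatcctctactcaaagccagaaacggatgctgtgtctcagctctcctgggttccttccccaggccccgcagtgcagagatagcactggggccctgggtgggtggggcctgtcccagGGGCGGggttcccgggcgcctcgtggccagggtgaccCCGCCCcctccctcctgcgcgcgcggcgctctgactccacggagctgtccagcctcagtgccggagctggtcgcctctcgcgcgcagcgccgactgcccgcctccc
Drd3: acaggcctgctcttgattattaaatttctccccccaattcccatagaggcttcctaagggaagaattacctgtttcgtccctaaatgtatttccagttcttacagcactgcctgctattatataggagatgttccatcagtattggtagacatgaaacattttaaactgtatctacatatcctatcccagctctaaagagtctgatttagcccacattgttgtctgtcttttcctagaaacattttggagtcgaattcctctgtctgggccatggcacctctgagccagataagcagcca
The GC content was 65.7% for Drd1, 70.3% for Drd2 and 42.0% for Drd3, against a median of 52.7% over 32851 start regions of the same length. A GC box occurred once in the Drd1 window and 2 times in the Drd2 window, and no GC box was found in that of Drd3. A further Drd1 window at a start nearer the coding part, at chr13:54054731-54055030, had a GC content of 59.3% and 1 GC box. The windows of Drd4 and Drd5 had 58.0% and 70.3% and held 3 and 2 GC boxes. Of all start regions, 35.7% held a GC box on either strand. None of the 6 windows held the TATA box TATAAA on either strand, which 13.6% of all start regions did, nor the E-box CACGTG, present in 7.15%. The cAMP response element TGACGTCA, in 1.79% of all, was likewise not found, nor was the D-box, searched as TTATGTAA and in its other form as TTATGCAA, in 1.66% of all. CCAAT was found 2 times in the Drd3 window and once in that of Drd4, and in 37.4% of all. These matches describe the letters of the windows only.

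Drd2 and Drd1 were among the abundant transcripts of the tissue, and the other receptor genes were near or below the detection filter of 1 FPKM. Drd2 averaged 147.5 ± 66.3 FPKM (SD, n = 66 libraries) and took rank 435 of 24138 genes, and Drd1 averaged 100.9 ± 23.1 FPKM and took rank 710. Drd3 averaged 2.35 ± 1.11 FPKM, Drd5 1.69 ± 0.287 and Drd4 0.258 ± 0.189. The lowest value of Drd1 or Drd2 in any library, 56.7 FPKM, was above the highest of the other receptor genes, 6.79 FPKM. Drd2 and Drd1 did not keep one order, with Drd2 above Drd1 in all 33 WT libraries and Drd1 above Drd2 in 19 of 33 iMSN-D2RKO libraries. Drd3 was above Drd5 in 48 of 66 libraries, and their ranges of 0 to 6.79 and 1.08 to 2.96 FPKM overlap. Drd5 was above Drd4 in 66 of 66 libraries and Drd3 above Drd4 in 64.

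**Figure D1:**
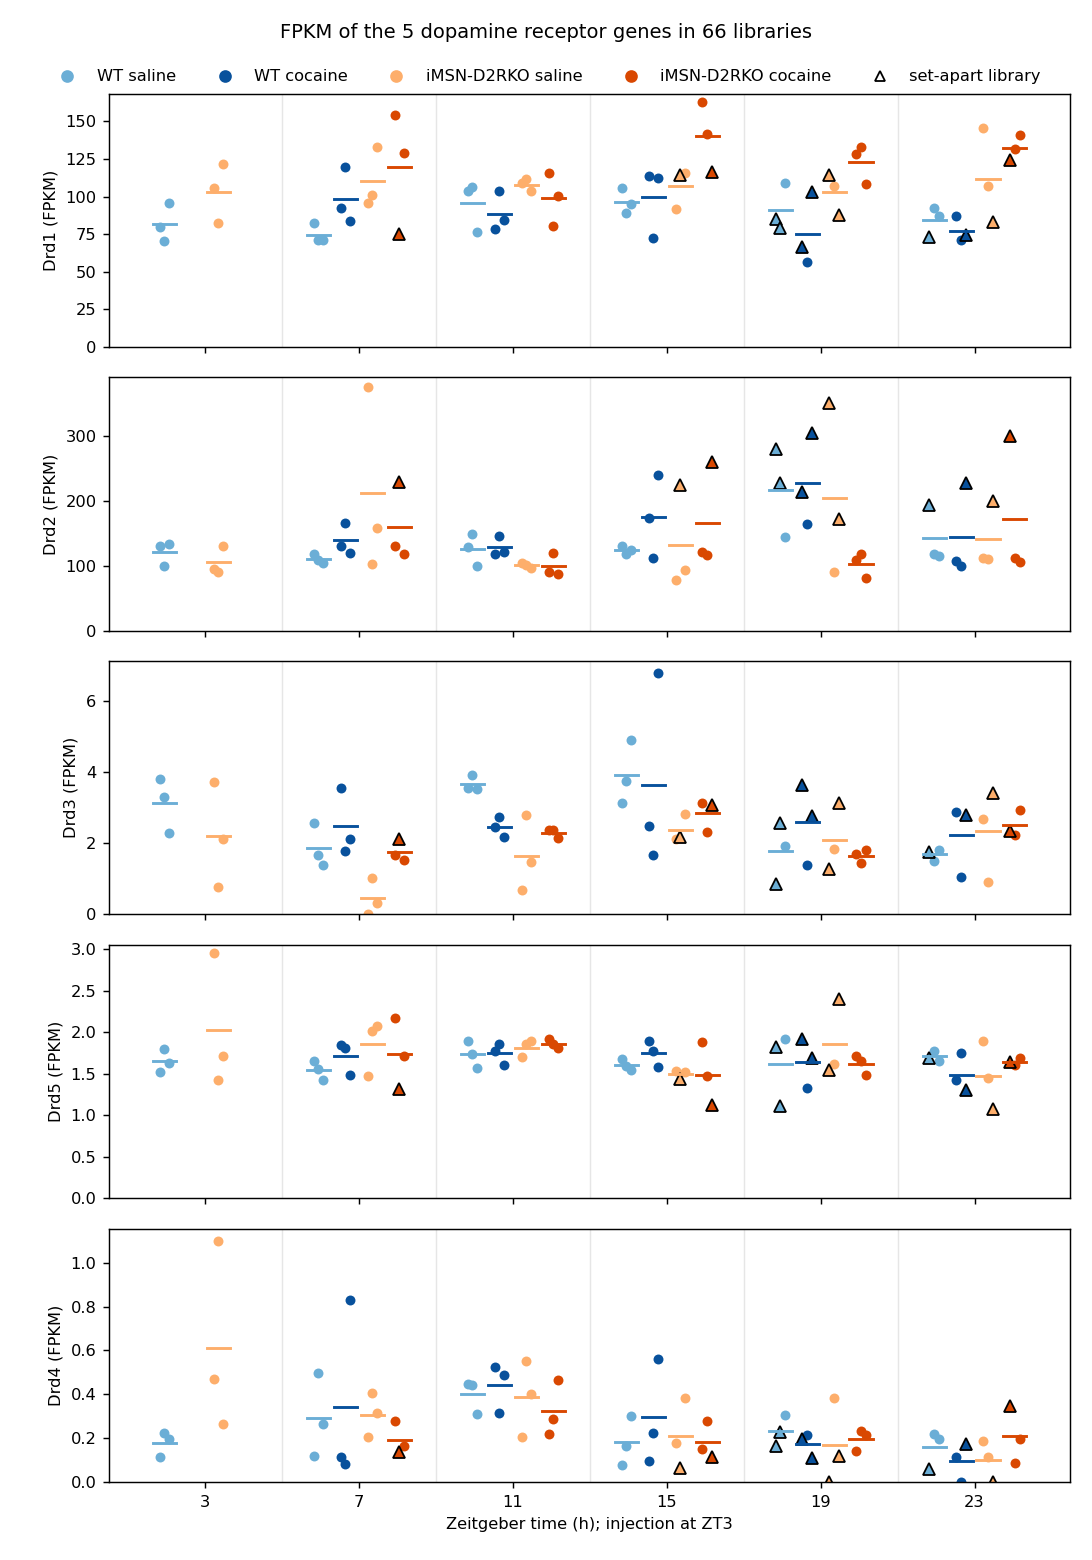
FPKM of each receptor gene (vertical axes, linear) in every library against zeitgeber time in hours (horizontal axis), with WT in blue and iMSN-D2RKO in orange, light shades for saline and dark shades for cocaine, bars for the mean of 3 libraries and triangles for the 13 set-apart libraries; the ZT3 libraries, shared by both treatments, are drawn in the shade of saline. Drd1 in iMSN-D2RKO lies above WT by its mean at every time and treatment, and the set-apart triangles are high in Drd2.

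Drd2, the gene that was deleted in iMSNs, did not differ between the genotypes past the threshold over all libraries at the level of the whole gene. It lay between 99.1 and 304.4 FPKM in WT (median 129.5, 33 libraries) and between 78.0 and 374.6 FPKM in iMSN-D2RKO (median 112.0, 33 libraries). In saline the difference was -0.02 (limma, SE 0.17, 95% interval -0.36 to 0.32, adjusted p = 0.978 with Benjamini-Hochberg adjustment over 14287 genes), and after cocaine -0.25 (SE 0.19, interval -0.63 to 0.13, limma adjusted p = 0.9996). Without the set-apart libraries these differences were -0.10 and -0.31 (limma adjusted p = 0.709 and 0.514). The groups overlapped at all but 1 of the 11 combinations of time and treatment, and 58.9% of 14643 genes had at least 1 combination with every iMSN-D2RKO library below every WT library. For Drd2 this was at ZT19 after cocaine, with 213.0, 164.1 and 304.4 FPKM in WT against 109.1, 118.6 and 81.1 in iMSN-D2RKO. There 2 of the 3 WT libraries and none of the iMSN-D2RKO libraries were set-apart ones.

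The value of the whole gene is a limited check of this deletion. The sources used here do not give the deleted part, and the study's methods credit the proof of the deletion to earlier work by ligand binding and by in situ hybridization with probes for exon 2. This exon makes up 316 of the 2547 bases, or 12.4%, of its annotated transcript. Transcripts that lack a part would still add to the FPKM of the gene, as would Drd2 RNA of cells in which Cre was not active, and in punched tissue fewer cells of a type and less RNA per cell cannot be told apart.

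Drd2 went with the set-apart libraries. In the set-apart libraries Drd2 ran from 171.4 to 350.4 FPKM with a median of 227.8, and in the other 53 from 78.0 to 374.6 with a median of 117.6. Within the 10 groups that held libraries of both kinds, the set-apart ones were higher by 0.63 to 1.46 on the log2 scale, with a mean of 1.04 and higher in 10 of 10 groups. The median gene of 14643 differed by 0.05, 90% of genes by -0.88 to 0.89, and 342 genes by at least as much as Drd2. The means of the other receptor genes were closer to 0, at -0.22 for Drd1, 0.21 for Drd3, -0.11 for Drd4 and -0.11 for Drd5. The set-apart libraries had a relative depth of 0.503 to 0.806 (median 0.737) against 0.378 to 1.73 (median 1.02) in the others. Marker sums moved with the set-apart libraries as well. Summed markers of the indirect pathway (5 genes), whose neurons carry D2 receptors, ran from 1795 to 3194 FPKM (median 2558) against 1132 to 9713 (median 1863) in the others, and within groups they differed in both directions, by 0.17 for Penk and -0.91 for Adora2a on the log2 scale. Other interneuron markers (4 genes) had medians of 1540 against 1126 FPKM, those of astrocytes (4) 273.3 against 183.0 and those of cholinergic interneurons (4) 37.9 against 32.0. Medians were lower for oligodendrocytes (5 genes), with 2277 against 2912 FPKM, and for the endothelium (3), with 40.6 against 55.4. The ranges overlapped for each of these lists, and none of their markers was at 0 in any library. The part of depth or of these cells in the Drd2 values was not tested.

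**Figure D2:**
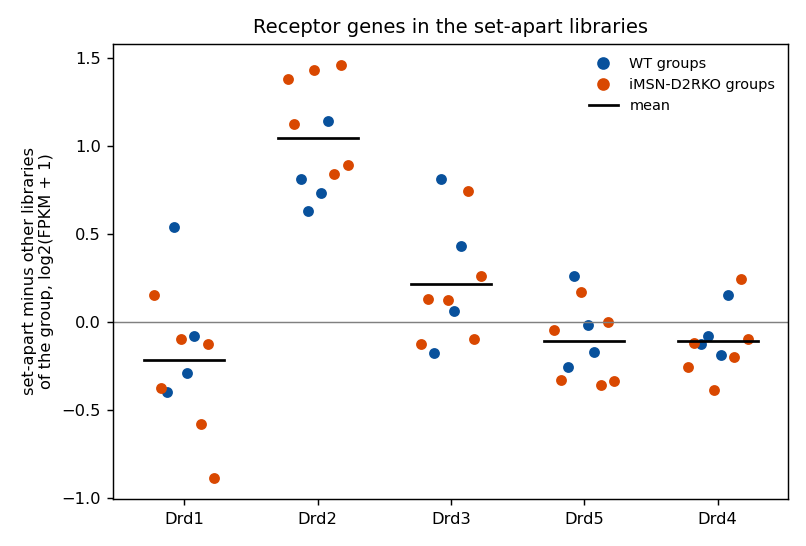
Difference in log2(FPKM + 1) between set-apart and other libraries of the same group (vertical axis) for each receptor gene, with a point for each of the 10 groups holding both kinds (blue for WT, orange for iMSN-D2RKO) and a bar for their mean. All 10 points of Drd2 lie above 0, with a mean of 1.04, whereas those of each other receptor gene lie on both sides of 0.

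Without such libraries the Drd2 difference between the genotypes was farther below 0. The highest value, 374.6 FPKM, was that of the library of highest total FPKM, iMSN-D2RKO ZT7 saline replicate 1, whose group mates were at 103.1 and 157.5 FPKM. Without that library and without the 13 set-apart ones, an exclusion chosen after the values were seen, Drd2 differed between the genotypes by -0.23 in saline (SE 0.09, limma adjusted p = 0.157) and by -0.26 over all time points and treatments (SE 0.07, limma adjusted p = 0.0373). Without the set-apart libraries alone, the latter difference was -0.19 (limma adjusted p = 0.364). With all 66 libraries it was -0.13 (SE 0.13, limma adjusted p = 0.790). Under the exclusion chosen after the values were seen, 242 of 14356 genes were called over all time points and treatments. With all 66 libraries 116 of 14643 genes were called.

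Drd1, the receptor of the direct pathway, was higher in iMSN-D2RKO than in WT by its mean at every time and treatment, and the difference passed the test over all 66 libraries but not in saline or after cocaine alone. It lay between 56.7 and 119.3 FPKM in WT (median 84.8) and between 75.4 and 163.1 FPKM in iMSN-D2RKO (median 114.0, 33 libraries each), so that the genotypes overlapped. At ZT7 in saline WT libraries had 82.3, 70.9 and 70.9 FPKM and iMSN-D2RKO libraries 95.9, 101.0 and 133.1. At ZT23 after cocaine WT libraries had 86.8, 70.9 and 74.1 FPKM and iMSN-D2RKO libraries 124.3, 131.8 and 140.6. At both points, as also at ZT15 and ZT19 after cocaine, every iMSN-D2RKO library was above every WT library, and 3.35% of genes had 4 or more combinations of this kind. The mean was higher in iMSN-D2RKO at 11 of 11 combinations of time and treatment, by 1.11 to 1.71 times, and 0.205% of 14643 genes were higher at all 11. Cre under the D1R promoter belongs to the iMSN-D2RKO genotype, and the sources used here do not say whether WT mice carried it. The transgene and the loss of D2R can therefore not be told apart in the Drd1 values, and neither was tested.

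In saline the Drd1 difference was 0.29 (limma, SE 0.07, 95% interval 0.14 to 0.44) and did not pass the adjustment over all genes (limma adjusted p = 0.117), where it took rank 48 of 14287 by p. After cocaine, in a fit without the ZT3 libraries that the saline fit held, it was 0.48 (SE 0.11, interval 0.25 to 0.71, limma adjusted p = 0.194) and took rank 13 of 14382. By this test 0.189% of genes were called in saline and 0.0487% after cocaine, and none of the receptor genes was among them. Taken over all 66 libraries, a comparison chosen after the values were seen, Drd1 was higher by 0.38 (SE 0.06, interval 0.25 to 0.51, limma adjusted p = 2.74e-04) and was the 1 receptor gene called, against 0.792% of all genes. It stayed called when any single library was left out (adjusted p from 2.38e-05 to 5.82e-04) but not when replicate 1 of every group was (adjusted p = 0.172). In saline it was called with the library score as a covariate (limma adjusted p = 0.0266), where 136 of 14287 genes were called. After cocaine it was called without the set-apart libraries (difference 0.57, limma adjusted p = 0.0360), where 14 of 14188 genes were called. It was also called without iMSN-D2RKO ZT7 cocaine replicate 2 alone (limma adjusted p = 0.0150), a set-apart library at 75.4 FPKM beside 154.2 and 128.8 in its group.

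**Figure D3:**
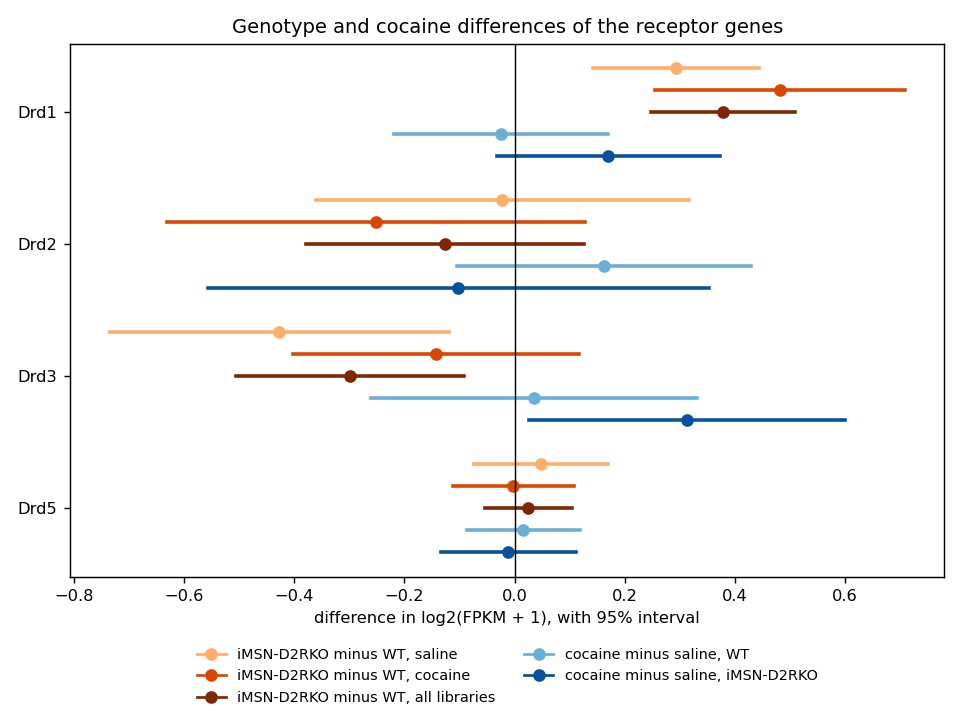
Differences in log2(FPKM + 1) with 95% intervals (horizontal axis) for Drd1, Drd2, Drd3 and Drd5, of iMSN-D2RKO minus WT in saline, after cocaine and over all 66 libraries (oranges), and of cocaine minus saline in either genotype (blues); Drd4, which passed the filter through 1 library, is not shown. The 3 genotype intervals of Drd1 lie above 0, at 0.29, 0.48 and 0.38, and those of Drd5 span 0 closely.

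The ratio of both abundant receptors is given as a description, since it combines values already compared. Outside the set-apart libraries the ratio of Drd2 to Drd1 ran from 1.23 to 2.90 in WT (median 1.40, 27 libraries) and from 0.746 to 3.90 in iMSN-D2RKO (median 0.884, 26 libraries). In the set-apart libraries it ran from 2.65 to 3.29 in WT (median 3.02, 6 libraries) and from 1.96 to 3.07 in iMSN-D2RKO (median 2.40, 7 libraries). The 19 libraries with Drd1 above Drd2 were all iMSN-D2RKO libraries outside the set-apart ones, 8 of the saline series, which holds ZT3, and 11 of 12 after cocaine. At ZT11, where no library was set apart, the ratio was 1.32 ± 0.0820 in WT saline and 0.930 ± 0.0247 in iMSN-D2RKO saline, and 1.45 ± 0.0526 and 1.05 ± 0.382 after cocaine (SD, n = 3 each).

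**Figure D4:**
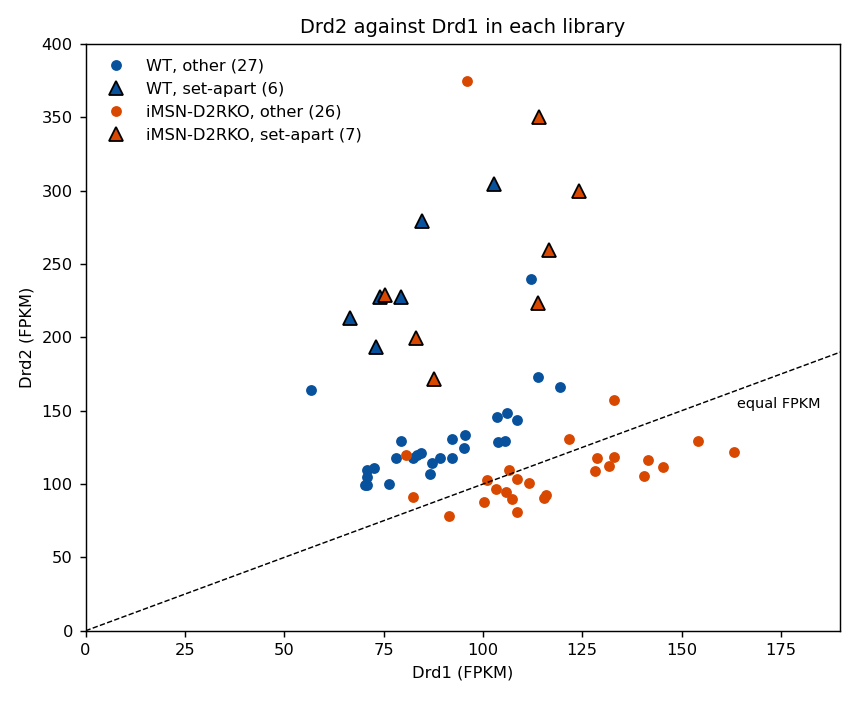
Drd2 (vertical axis, FPKM) against Drd1 (horizontal axis, FPKM) in each of the 66 libraries, with WT in blue, iMSN-D2RKO in orange, triangles for set-apart libraries and a dashed line where both are equal. All WT libraries lie above the line, 19 iMSN-D2RKO libraries lie below it, and the 13 set-apart libraries lie well above it.

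Drd3, a D2-like receptor typical of the ventral striatum, had lower values in iMSN-D2RKO than in WT at ZT7, ZT11 and ZT15 in saline, and its difference over the series did not pass the adjustment. It lay between 0.862 and 6.79 FPKM in WT (median 2.58) and between 0 and 3.74 FPKM in iMSN-D2RKO (median 2.13). At ZT11 in saline WT libraries had 3.57, 3.93 and 3.53 FPKM and iMSN-D2RKO libraries 0.682, 2.80 and 1.47, and at ZT15 WT libraries had 3.15, 3.76 and 4.90 and iMSN-D2RKO libraries 2.13, 2.82 and 2.17. At both points, and at ZT7 in saline, every iMSN-D2RKO library was below every WT library, as for 4.43% of genes at 3 or more combinations. At ZT19 and ZT23 in saline the groups overlapped and the iMSN-D2RKO mean was the higher one, with 2.08 against 1.79 and 2.34 against 1.70 FPKM. Over the saline series Drd3 differed by -0.43 (limma, SE 0.15, 95% interval -0.74 to -0.12, adjusted p = 0.379) and after cocaine by -0.14 (SE 0.13, interval -0.40 to 0.12, limma adjusted p = 0.9996). Over all 66 libraries it differed by -0.30 (SE 0.10, limma adjusted p = 0.185). Without the set-apart libraries the difference was -0.59 in saline (limma adjusted p = 0.0993) and -0.05 after cocaine (limma adjusted p = 0.979). At these low levels the size depends on the pseudocount, and with 0.1 in place of 1 it was -0.77 in saline (limma adjusted p = 0.398).

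The lowest Drd3 values were those of iMSN-D2RKO at ZT7 in saline, with 0, 1.04 and 0.313 FPKM, and the cocaine libraries of the same time had 1.67, 2.11 and 1.53. The library listed at 0 was again that of highest total FPKM, with a relative depth of 0.421. The difference of cocaine from saline in that group was 0.99 (limma, SE 0.32, 95% interval 0.34 to 1.64, adjusted p = 0.117), the 1 of 50 tests of a receptor gene at a single time point with an unadjusted p under 0.05. In that comparison 0.0137% of 14643 genes were called, whereas 3346 genes had an unadjusted p under 0.05.

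Drd5, the D1-like receptor of low level in striatum, was the most even of the family over all 66 libraries. It lay between 1.08 and 2.96 FPKM over all libraries with a median of 1.68, and its coefficient of variation between the 66 libraries was 17.0%, against 22.9% for Drd1, 44.9% for Drd2, 47.1% for Drd3 and 73.1% for Drd4. Within WT the coefficient was 11.7% for Drd5 and 17.9% for Drd1, but within iMSN-D2RKO it was 20.8% for Drd5 and 18.9% for Drd1. The genotypes differed by 0.05 in saline (limma, SE 0.06, 95% interval -0.07 to 0.17, adjusted p = 0.830) and by -0.002 after cocaine (SE 0.05, interval -0.11 to 0.11, limma adjusted p = 0.9996).

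Drd4 was barely detected. It was listed at 0 in 3 libraries, ran up to 1.10 FPKM and had a median of 0.215. The filter was passed through 1 library, iMSN-D2RKO ZT3 replicate 2, with 1.10 FPKM beside 0.468 and 0.266 in its group and 0.112, 0.224 and 0.197 in WT, so Drd4 was tested only in fits that held this library. Since the library belongs to one of the compared genotypes, no test of the genotype difference of Drd4 is given. At ZT3 every iMSN-D2RKO library was above every WT library, but this is the group through which the filter was passed. For the reverse order, 58.9% of 14643 genes had at least 1 such combination of time and treatment. Nothing is therefore concluded from the order at ZT3. At the other 10 combinations of time and treatment the genotypes overlapped.

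None of the receptor genes differed between cocaine and saline past the threshold, either over the day or at single times. Over the 5 times after injection Drd1 differed by -0.03 in WT (limma, SE 0.10, 95% interval -0.22 to 0.17) and by 0.17 in iMSN-D2RKO (SE 0.10, interval -0.03 to 0.37). Drd2 differed by 0.16 in WT (interval -0.10 to 0.43) and by -0.10 in iMSN-D2RKO (interval -0.56 to 0.35), Drd3 by 0.04 and 0.31, and Drd5 by 0.02 and -0.01. The limma adjusted p was 0.9996 for each of the 4 genes in WT and 0.9994 in iMSN-D2RKO, although the 95% interval of Drd3 in iMSN-D2RKO, 0.03 to 0.60, did not hold 0. With a pseudocount of 0.1 that Drd3 difference was 0.66 and without the set-apart libraries it was 0.40 (limma adjusted p = 0.540), and in WT it was then -0.11. The Drd2 difference in iMSN-D2RKO was -0.02 without the set-apart libraries. In both genotypes 0% of genes were called by limma, and 365 genes in WT and 425 in iMSN-D2RKO had an unadjusted p under 0.05. The difference between the genotypes in the response to cocaine was tested itself and was 0.19 for Drd1 (95% interval -0.08 to 0.47), -0.26 for Drd2 (-0.79 to 0.26), 0.28 for Drd3 (-0.13 to 0.69) and -0.03 for Drd5 (-0.18 to 0.12), each with a limma adjusted p of 0.9996. Without the set-apart libraries the Drd3 value was 0.51 (SE 0.22, limma adjusted p = 0.804), and with a pseudocount of 0.1 it was 0.61. In this test there were 0% of genes called and 245 at an unadjusted p under 0.05.

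At single times the 50 differences ran from -0.78 to 0.99 and none was called, the lowest limma adjusted p being 0.117. The lowest value was that of Drd2 in iMSN-D2RKO at ZT19, where saline libraries had 350.4, 90.0 and 171.4 FPKM and cocaine libraries 109.1, 118.6 and 81.1. The first and the last of these saline libraries were set-apart ones. At this time 0% of genes were called and 2340 had an unadjusted p under 0.05. The share of genes called in WT was 0.00683% at ZT7, 0% at ZT11, 0.00683% at ZT15, 0.0205% at ZT19 and 0% at ZT23, and in iMSN-D2RKO, apart from ZT7, 0% at each time. At an unadjusted p under 0.05 there were 60 to 3346 genes over the 10 comparisons.

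The daily course of the receptor genes was tested with JTK_CYCLE, a rank test against cosine orders, at its corrected p under 0.01 in each series of 18 libraries. Drd4 was below the filter in both WT series. None of the receptor genes was called, whereas 9.81% of genes were in WT saline, 7.61% in WT cocaine, 2.58% in iMSN-D2RKO saline and 1.10% in iMSN-D2RKO cocaine. The lowest value was that of Drd2 in WT saline (corrected p = 0.168 from the exact null of the statistic), whose mean was lowest at ZT7 with 110.5 ± 6.69 and highest at ZT19 with 216.7 ± 68.6 FPKM (SD, n = 3). Of the 3 libraries at ZT19, those with 279.2 and 227.4 FPKM were set-apart ones, and the remaining one had 143.4. Without the set-apart libraries the exact corrected p was 1, its ceiling. Drd3 in WT saline went from 1.70 FPKM at ZT23 to 3.94 FPKM at ZT15 (exact corrected p = 0.262, and 0.0892 without the set-apart libraries), and Drd1 from 74.7 FPKM at ZT7 to 96.7 FPKM at ZT15 (exact corrected p = 0.270, and 0.0300 with the library score removed). In iMSN-D2RKO saline Drd2 had an exact corrected p of 1, and of 0.0318 without the set-apart libraries. Without the library of highest total FPKM as well, the exact corrected p was 0.114. With the library score removed it was 0.213.

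Whether the daily course differed between groups was tested by the interaction of a 24 h cosine and sine with the group. None of the receptor genes was called in the 4 comparisons, in each of which 0% of genes were called by limma and 198 to 789 genes had an unadjusted p under 0.05. By unadjusted p the smallest was that of Drd3 between the genotypes in saline (limma adjusted p = 0.975), followed by Drd3 between cocaine and saline in iMSN-D2RKO (limma adjusted p = 0.594). For Drd1 between the genotypes after cocaine the limma adjusted p was 0.590.

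The genes around the receptors were read as 4 lists. For the supply and removal of dopamine, 6 of 7 genes were tested in saline, none was called and the median genotype difference was 0.07, against 0.01 over all genes tested. This list holds Th, the rate-limiting enzyme of dopamine synthesis, at 8.34 FPKM, and Slc6a3, the dopamine transporter, which averaged 0.0854 FPKM and was below the filter. Of 13 G protein and cyclase genes none was called in saline, with a median of -0.06. Gnas, the stimulatory alpha subunit that D1-like receptors use beside Gnal, was nearest to a call there with a difference of 0.34 (limma, SE 0.08, adjusted p = 0.0637), was called over all 66 libraries (0.27, SE 0.07, limma adjusted p = 0.0486) and was named after its values were seen. It had a median of 602.9 FPKM in WT and 705.7 in iMSN-D2RKO. Neither the 16 genes of receptor kinases, arrestins, RGS proteins and other regulators nor the 14 effector genes, such as Ppp1r1b (DARPP-32), had a called member, and their medians were 0.05 and -0.03. After cocaine the 4 lists likewise had no called member in the genotype comparison, with medians of 0.11, 0.01, 0.05 and 0.03 against 0.01 over all genes. In the comparisons of cocaine with saline none was called in either genotype.

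Marker lists described the punches. Spiny neuron markers (8 genes) summed to 1648 to 3840 FPKM in WT and 1813 to 5887 in iMSN-D2RKO, and none was at 0 in any library. Of 5 markers of the indirect pathway Penk, the enkephalin precursor, was called in the genotype comparison, higher in iMSN-D2RKO by 0.76 in saline (limma, SE 0.15, adjusted p = 0.0165) and by 0.70 after cocaine (SE 0.13, limma adjusted p = 0.0224), and the median of the list was 0.01 and -0.06. Of the 8 markers of the direct pathway none was called, with medians of -0.04 and -0.04 beside the Drd1 differences of 0.29 and 0.48, and their sum ran from 316.9 to 589.4 FPKM in WT and from 245.2 to 600.1 in iMSN-D2RKO. Cholinergic interneuron markers (4 genes) ran from 22.6 to 53.9 FPKM in WT and from 23.2 to 48.9 in iMSN-D2RKO, and other interneuron markers (4 genes) from 702.8 to 2338 and from 773.1 to 3947. Of the 4 genes of midbrain dopamine neurons, 3 passed the filter, the sums were 12.1 to 22.4 and 11.3 to 23.1 FPKM, and Slc6a3 was at 0 in at least 1 library. Markers of cortical glutamatergic neurons (5 genes) ran from 18.2 to 291.7 FPKM in WT and from 3.44 to 265.5 in iMSN-D2RKO, a wide range within either genotype, and those of the choroid plexus (3 genes) from 0.760 to 322.5 and from 0.807 to 1123, with Ttr and Folr1 at 0 in some libraries. Oligodendrocyte (5 genes), astrocyte (4), microglia (5) and endothelial (3) markers had medians of 3000, 196.4, 142.2 and 51.9 FPKM in WT and 2537, 183.6, 134.2 and 53.3 in iMSN-D2RKO. None of these other lists had a called member in either treatment, and their part in the receptor values was not tested.

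The genes most like a receptor gene across groups and libraries are given as a description, by Pearson r over points that share the libraries and their depth. Over the 22 group means Drd1 was most like Inhba (0.87), Klhl2 (0.83) and Yap1 (0.82) among 9583 genes. Over the 66 deviations from group means it was most like Smpd3 (0.88), Tacr1 (0.83) and Pde2a (0.82). Drd2 was most like Qrich1 (0.92) and Dmtn (0.92) over the group means and like Ppp2r2a (0.95), Foxo1 (0.94) and Prrt2 (0.94) over the deviations, which carry the contrast of set-apart and other libraries. Drd3 was most like Pdyn (0.90), the dynorphin precursor of direct pathway neurons, Ptpn9 (0.89) and Dlk1 (0.89) over the group means and like Spata13 (0.80), Sec22c (0.73) and Fat1 (0.71) over the deviations. Drd5 came with lower values, for Srd5a3 (0.75), Bgn (0.74) and Vamp2 (0.70) over the group means and for Diras2 (0.57), Atxn7l3b (0.57) and Chsy1 (0.55) over the deviations. Among the receptor genes, Drd1 and Drd2 had r = -0.08 over the group means and -0.03 over the deviations, and Drd1 and Drd5, both D1-like, 0.02 and 0.45. Drd4 and Drd5 had 0.69 and -0.12, but Drd4, with a mean of 0.258 FPKM, was below the mean required of a receptor gene here. Both had their highest group mean in iMSN-D2RKO at ZT3, with 0.610 and 2.03 FPKM.

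The measured genes nearest to each receptor gene on its chromosome were read beside it, 2 on either side. Sfxn1, 16164 bases from Drd1, averaged 29.7 FPKM and differed between the genotypes by -0.05 in saline and -0.11 after cocaine, and Hrh2, farther on the same side, by -0.11 and 0.01. On the other side of Drd1 lie 9530014B07Rik and 4930555G21Rik, both too low to be tested. Near Drd2, Ankk1 and Ttc12 averaged 1.23 and 1.34 FPKM, and Ttc12 differed by 0.19 in saline (limma, SE 0.05, adjusted p = 0.235). Tmprss5, on the other side, differed by -0.09, and Gm4894 was too low to be tested. Zdhhc23 beside Drd3 differed by -0.36 in saline (limma adjusted p = 0.423), while Gramd1c, Mir568 and Tigit were too low there. Deaf1, 716 bases from Drd4 on the opposite strand, averaged 25.8 FPKM and differed by 0.24 (limma adjusted p = 0.339), and Tmem80 by 0.02, whereas Cdhr5 and Sct were too low. Of the genes around Drd5, Tmem128 differed by -0.13 (limma adjusted p = 0.373), and Otop1, 4930487D11Rik and Slc2a9 were too low. None of these neighbours was called in saline or after cocaine. Over all 66 libraries, a comparison chosen after the values were seen, Ttc12 was called (0.17, SE 0.04, limma adjusted p = 0.0345), against 0.792% of all genes.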

How the data were processed

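Poly(A) RNA of ventral striatum punches was sequenced by the authors as stranded single-end reads, processed per the labels with CASAVA 1.8.2, Bowtie and Cuffnorm, and aligned to mm10. The deposited values are FPKM per gene, which the authors normalized with Cuffnorm, and were used without scaling. The table holds 72 columns, of which 6 repeat the ZT3 libraries with identical values. Read counts were not analysed, so no counting interval can be given, and precision rests on 3 libraries per group.

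Levels were compared by moderated linear models with a mean-variance trend (limma 3.58.1 in R 4.3.3), fitted to log2(FPKM + 1) with the time point as a factor. Genes that reached 1 FPKM in any library of a fit were tested, Benjamini-Hochberg adjustment ran over all of them, and a gene was called at an adjusted p under 0.05. Rhythm was tested by the rules of JTK_CYCLE in Python 3.11.15 (numpy 2.4.6, scipy 1.17.1) with periods of 20 and 24 h, after Dixon's test at 95% left out at most 1 replicate per time point. The order of ties was settled by comparison with the study's own listing. Both tests were checked on simulated data. With limma, 198 of 200 genes changed by 1 on the log2 scale were recovered, and 10 others were called. By the JTK_CYCLE rules 188 of 200 genes with an added cosine were recovered, and 10 others were called. The limma change was larger than the genotype differences of the receptor genes, so the check does not show how well those are found.

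Named were the 5 receptor genes, for each of mean FPKM of at least 1 the 3 most similar genes of mean FPKM of at least 5 by either measure, the 2 nearest measured genes on either side, and called genes of the pathway lists in saline; 1 similar gene is not reported here. Receptors and lists were chosen with earlier results of these data known. Start regions are from RefSeq (GRCm38.p6), where all 5 genes matched. Alternatives were other pseudocounts, filters and scalings, a library score, left-out libraries and a replicate block.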

Additional observations from a re-analysis of the deposited data

How the results depend on the processing

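Of 341 counts of called receptor genes recomputed under other settings, 336 stayed the same, and those at single time points, of rhythm and of rhythm differences stayed at 0. Called genotype differences became 1 in saline with the library score as a covariate and 1 after cocaine without the set-apart libraries. In the comparison over all 66 libraries there were 2 without the set-apart libraries and the library of highest total together. Calls among all genes tested rose under the same settings. They went from 27 to 136 in saline, from 7 to 14 after cocaine and from 116 to 242 in the last comparison. Leaving out libraries gave 0 to 1 called genes after cocaine (1 without iMSN-D2RKO ZT7 cocaine replicate 2) and 0 to 1 over all 66 libraries (0 without replicate 1 of every group). The cause of these changes was not tested. Of 1386 recomputed log2 differences, 63 changed sign, none of them called in either direction. These were Drd2 in saline without ZT3 (0.01), Drd5 between the genotypes after cocaine with the library score as a covariate (0.00) or without the set-apart libraries (0.06), and Drd3 for cocaine in WT without the set-apart libraries (-0.11). For cocaine in iMSN-D2RKO they were Drd2 without the set-apart and highest-total libraries (0.09) and Drd5 under upper-quartile scaling (0.01), without the set-apart libraries (0.03) and without both kinds (0.01). For genotype by cocaine they were Drd5 without the set-apart libraries (0.03) and without both kinds (0.01). The remaining sign changes came from left-out libraries or replicates, over which Drd2 in saline ran from -0.13 to 0.07 and Drd5 between the genotypes after cocaine from -0.03 to 0.03. For cocaine in WT the ranges were -0.07 to 0.02 for Drd1, -0.10 to 0.32 for Drd2, -0.10 to 0.26 for Drd3 and -0.02 to 0.05 for Drd5, and in iMSN-D2RKO -0.24 to 0.01 for Drd2 and -0.08 to 0.04 for Drd5. For genotype by cocaine they were -0.51 to 0.06 for Drd2 and -0.10 to 0.03 for Drd5. Over all 66 libraries the range of Drd4 was -0.01 to 0.06. Drd4 entered that fit only through iMSN-D2RKO ZT3 replicate 2, which belongs to one of the compared genotypes. Nothing is therefore concluded from its range or its sign changes. With a replicate block the saline Drd1 difference was 0.29, and no count of called receptor genes changed. Libraries of the same replicate number deviated together no more than others did (median r from -0.02 to 0.01, lowest -0.89), so the numbers were not taken as pairs. Read depth is unknown, which leaves the precision of Drd3, Drd4 and Drd5 at low FPKM to the spread of 3 libraries.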
